A study of Mus musculus with 18 samples.

Results

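Pancreatic acinar cells of WT mice were followed over a suspension culture, and the net change over the whole culture, day 4 against day 0, was examined. Libraries of the comparison were the 3 labelled WT at day 4 and the 3 labelled WT at day 0, that is 6 of the 18 libraries of the series. All genes that passed a filter on low counts were taken, 13203 of the 46603 genes in the count table, and 12525 of these are protein coding. Day 4 cells had been maintained in Advanced RPMI medium in suspension, a condition in which acinar cells dedifferentiate, and day 0 cells were freshly isolated. No added agent is named for either group. WT mice are xCT+/+, without the deletion of xCT (the cystine transporter subunit encoded by Slc7a11) that defines the xCT KO (xCT-/-) mice of the other libraries, and age is not given for these libraries. The remaining 12 libraries were WT at day 1 and xCT KO at day 0, day 1 and day 4, with 3 per group. No sorting step is described, and other cells of the pancreas could be carried along. The labels number the libraries of a group but do not say that each is a separate mouse, and p-values then measure the spread between these libraries, which may in part be technical.

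Acinar cells are the enzyme factories of the exocrine pancreas. They fill zymogen granules with proteases, lipases, amylases and nucleases, release them on stimulation by cholecystokinin and acetylcholine, and keep this identity through transcription factors such as PTF1A, RBPJL, MIST1 (Bhlha15) and NR5A2. Injured or explanted acinar cells can lose these features and gain duct-like and embryonic ones, a state called acinar dedifferentiation or, in tissue, acinar-to-ductal metaplasia. It is linked to repair after pancreatitis and to the first steps of pancreatic cancer.

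Sequencing depth was 18459524 to 20135435 counts in WT libraries of day 4, against 12127474 to 14192071 in those of day 0. At least 10 counts were seen for 13090 to 13340 genes per day 4 library and for 9246 to 9829 per day 0 library. The 10 most abundant genes made up 18.3% to 22.6% of each day 4 library, against 64.9% to 66.4% of each day 0 library. Weakly expressed genes were therefore measured with the least precision at day 0. Levels are given as CPM, which are counts relative to library size after TMM scaling (a scaling that centres the bulk of genes and is not set by a few very abundant ones). With library totals alone as the scale, log2 fold changes are raised by a median of 2.97, and the median gene stands at 3.10 in place of 0.13. Genes without counts at day 0 are raised by less, such as Anxa10 from 11.9 to 12.7. A gene can thus be lower at day 4 relative to most genes and yet take a larger share of the library. Directions below are on the TMM scale unless stated, and "on both scales" means that library totals gave the same call. Cell numbers were not given, and in bulk RNA fewer cells of a type cannot be told apart from less RNA per cell.

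Of the 13203 genes, 4429 (33.5%) were higher and 3547 (26.9%) lower at day 4 with an adjusted p under 0.05 in edgeR's quasi-likelihood test, that is 7976 in all (60.4%), and 5227 were not called. Past a 2-fold change, tested against that threshold, 1322 genes (10%) were higher and 1455 (11%) lower. In all 1322 and in 1428 of the 1455 the day 4 and day 0 libraries did not overlap. These genes were picked by that test on the same libraries, so the lack of overlap adds no support. With library totals, all 4429 higher genes were also higher, whereas 305 of the 3547 lower genes were also lower, 2760 became higher and 482 were not called. On that scale 12345 genes (93.5%) were higher and 305 lower in all. Those 305, or 2.31% of the genes tested, fell on both scales. The shares of 33.5% higher, 26.9% lower and 2.31% lower on both scales are the background for every list count below. Lists that hold genes without counts at day 0 lean to higher genes, as such genes could pass the filter only through other groups.

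**Figure D1:**
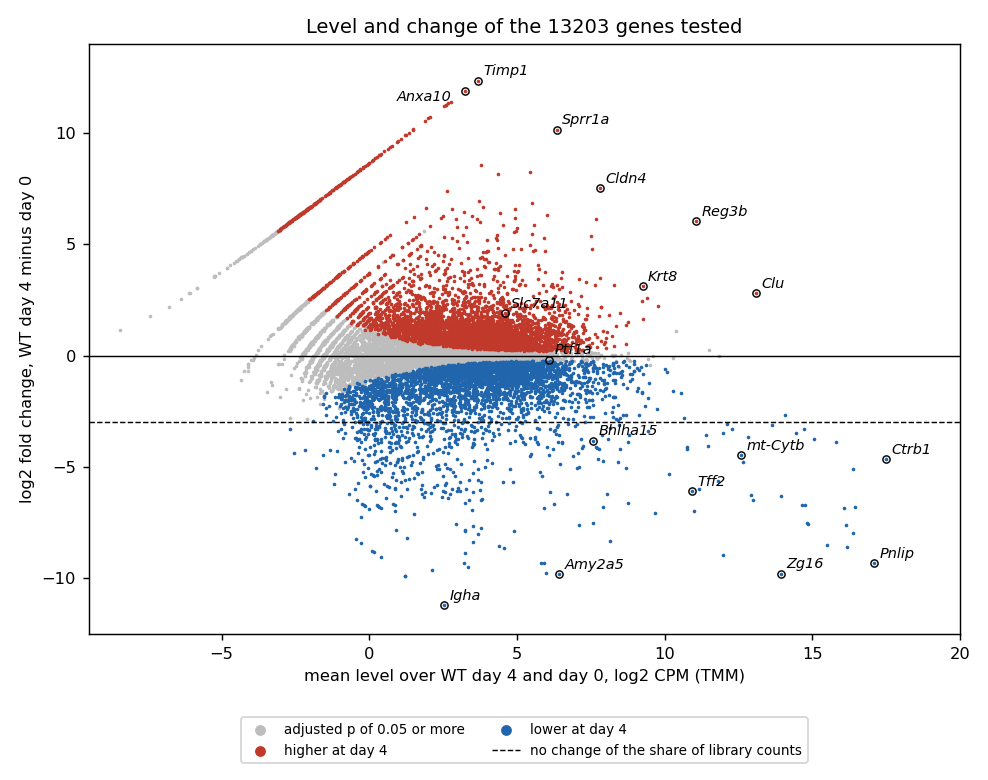
Each point is 1 of the genes tested, with its mean level over WT day 4 and day 0 (log2 CPM) on the x axis and its log2 fold change, day 4 minus day 0, on the y axis. The 2 genes without a count in either day are not drawn, streaks at the upper left are genes with few or no counts at day 0, and points below the dashed line lost share of the library, among them Pnlip, Ctrb1 and Zg16, while Ptf1a lies near 0.

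The genes that rose most among those with a mean of at least 5 CPM were mostly without counts at day 0. Timp1, a secreted inhibitor of matrix metalloproteinases, had 26.5, 26.8 and 23.3 CPM at day 4, against no counts at day 0, which is at least 123-fold higher (Timp1 lies within an intron of Syn1 on the other strand, and strand use in the counting is not stated). Anxa10, an annexin of gastric epithelium, had 15.8, 18.8 and 22.0 CPM at day 4, against no counts at day 0, and was at least 90.8-fold higher. Serpinb9b, a serpin, was at least 64.6-fold higher, Pmaip1, which encodes the BH3-only death factor NOXA, at least 61.3-fold, Cldn18, a claudin of stomach and lung, at least 58.2-fold, and Mmp7, a metalloproteinase of glandular epithelium, at least 58.1-fold, each against a floor of 3 counts over the day 0 group. Sprr1a, a cornified envelope precursor that also appears in regenerating tissue, had 181, 181 and 124 CPM at day 4, against 0, 0 and 0.387 CPM at day 0, which gives a ratio of 1171 (95% counting interval 324 to 9671). Ptgs2, which encodes the prostaglandin synthase COX-2, had 28.3, 29.2 and 25.6 CPM at day 4, against 0, 0 and 0.193 CPM at day 0, and Il1rn, the interleukin 1 receptor antagonist, 42.4, 45.4 and 33.9 CPM at day 4, against 0, 0.209 and 0.193 CPM at day 0. Cldn4, a tight junction claudin of duct epithelium, had counts in every library, 497, 442 and 400.4 CPM at day 4, against 2.45, 2.51 and 2.32 CPM at day 0, a log2 fold change of 7.52 ± 0.16 (SE; adjusted p = 1.1e-25, edgeR). The unnamed loci 2210407C18Rik and RP23-148L8.3 completed these 12. These intervals and the floor take in no error other than that of counting.

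At the other end, Amy2a5, a pancreatic amylase, had 0.162, 0.0344 and 0.360 CPM at day 4, against 183, 169.6 and 159.8 CPM at day 0, a log2 fold change of -9.82 ± 0.30 (adjusted p = 2.6e-14, edgeR). Amy2a5 belongs to a family of near-identical amylase genes, and the low count of this copy cannot be told apart from reads assigned to or dropped between copies. Zg16, a zymogen granule lectin, had 37.2, 32.99 and 36.1 CPM at day 4, against 38007, 29204 and 26693 CPM at day 0 (log2 fold change -9.79 ± 0.20). Hamp2, a hepcidin, had 0.233, 0.103 and 0.0900 CPM at day 4, against 145, 122 and 113 CPM at day 0. Pnlip, pancreatic lipase, and Pla2g1b, pancreatic phospholipase A2, had log2 fold changes of -9.33 and -8.94. Tmed11, a cargo receptor of the p24 family, Susd2 and the loci Galnt6os and 1810018F18Rik were also among the 12. The remaining 3 are markers of immune cells, namely the immunoglobulin heavy chains Igha and Ighm and the class II antigen presentation gene H2-Aa. Igha had no counts at day 4, against 8.92, 3.98 and 21.8 CPM at day 0, and H2-Aa had 0.0180, 0.0517 and 0 CPM at day 4, against 11.8, 17.2 and 31.9 CPM at day 0.

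The 250 bases before the start of 4 of these genes, the highest and the lowest for which RefSeq sequence was at hand, are shown since their levels moved furthest. Capitals mark matches on either strand to the PTF1 E box CANNTG, the PTF1 TC box TTTCCCA, the AP-1 site TGACTCA or TGAGTCA, the TEAD site CATTCC or the CCAAT box CCAAT.
Timp1 (chrX:20869916-20870165, plus strand, GRCm38.p6): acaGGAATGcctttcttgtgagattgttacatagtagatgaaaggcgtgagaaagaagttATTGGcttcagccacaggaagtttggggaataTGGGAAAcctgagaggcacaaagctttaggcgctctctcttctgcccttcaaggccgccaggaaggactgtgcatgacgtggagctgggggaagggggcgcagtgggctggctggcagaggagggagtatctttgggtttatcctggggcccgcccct
Anxa10 (chr8:62123194-62123443, minus strand, GRCm38.p6): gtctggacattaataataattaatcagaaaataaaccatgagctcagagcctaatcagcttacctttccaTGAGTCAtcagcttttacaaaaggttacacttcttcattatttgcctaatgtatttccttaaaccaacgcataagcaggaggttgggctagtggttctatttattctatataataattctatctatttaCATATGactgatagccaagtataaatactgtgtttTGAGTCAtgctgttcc
Amy2a5 (chr3:113258700-113258949, minus strand, GRCm38.p6): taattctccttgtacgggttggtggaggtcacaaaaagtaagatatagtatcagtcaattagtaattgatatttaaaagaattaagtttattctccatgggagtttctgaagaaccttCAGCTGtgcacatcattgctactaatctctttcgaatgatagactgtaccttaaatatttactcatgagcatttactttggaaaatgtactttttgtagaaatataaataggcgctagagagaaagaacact
Hamp2 (chr7:30924182-30924431, minus strand, GRCm38.p6): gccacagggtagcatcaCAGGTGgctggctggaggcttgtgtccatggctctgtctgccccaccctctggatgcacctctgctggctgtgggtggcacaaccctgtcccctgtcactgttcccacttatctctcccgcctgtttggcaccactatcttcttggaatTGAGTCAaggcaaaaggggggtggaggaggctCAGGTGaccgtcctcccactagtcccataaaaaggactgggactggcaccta
The Anxa10 window held 2 AP-1 matches, at -180 and -16 from the start, and 1 E box. The Timp1 window held 1 TC box, 1 TEAD site and 1 CCAAT box, and no AP-1 match of these letters. In Amy2a5 a single E box stood at -132 from the start, and the Hamp2 window had 2 E boxes and 1 AP-1 match. Among the 9807 genes tested for which the RefSeq table (GRCm38.p6) gives such a window, 3.17% held the AP-1 site, 57% the E box, 6.96% the TC box, 10.6% the TEAD site and 36.3% the CCAAT box. These 9807 are 74.3% of the genes tested. A difference in motif shares between genes that rose and genes that fell was not tested.

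Digestive enzyme genes lost most of their share of the library. Proteases, lipases, amylases and nucleases together took 11.3%, 11.5% and 15.6% of counts in the 3 day 4 libraries, against 81.7%, 79.8% and 79.4% in the 3 day 0 libraries. The groups were far apart, and the exact permutation test gave p = 0.1 (two-sided), the smallest p that 3 against 3 allows. Day 4 replicate 3 kept the largest share and was also the day 4 library that differed most from the others.

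**Figure D2:**
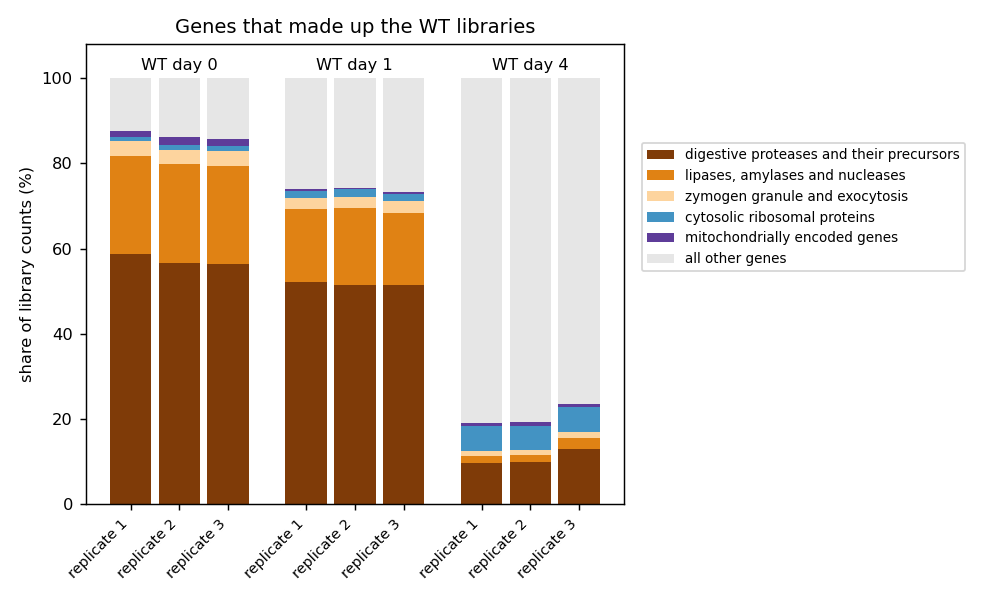
Bars give the share of library counts (%) taken by 5 gene lists and by all other genes in each WT library at day 0, day 1 and day 4. Enzyme genes filled 11.3% to 15.6% of each day 4 library, against 79.4% to 81.7% of each day 0 library, and the share of ribosomal protein genes was larger at day 4.

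All 18 proteases and precursors were lower at day 4 (26.9% of all genes were), with a median log2 fold change of -5.95 against 0.13 over all genes, and 16 of them were also lower with library totals. Ctrb1, chymotrypsinogen B and the gene with most counts at day 0, took 3.68%, 3.50% and 5.07% of counts at day 4, against 13.8%, 12.7% and 12.6% at day 0. Its log2 fold change of -4.66 ± 0.20 was among the smaller ones of the list, whereas the elastase Cela1 had -7.95, chymotrypsin C (Ctrc) -8.34 and the chymotrypsin-like Ctrl -8.50. Carboxypeptidase A1 (Cpa1) took 1.26%, 1.33% and 1.61% of counts at day 4 and 6.21%, 5.99% and 6.03% at day 0. Enzymes thus did not fall to one extent, from -8.50 to -3.29 within the list. Trypsinogen genes (Prss1, Prss2, Prss3, Try4, Try5, Try10 and 2210010C04Rik) are near-identical copies, and how reads were divided between them is uncertain.

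All 10 lipases, amylases and nucleases tested were lower on both scales, with a median log2 fold change of -7.23. Pnlip took 0.152%, 0.124% and 0.107% of counts at day 4, against 10.4%, 10.4% and 10.1% at day 0. Bile salt-activated lipase (Cel) fell by 8.58 and pancreatic ribonuclease (Rnase1) by 7.51, while the lipase-related Pnliprp1 fell by 3.73 and was among the 10 genes with most counts at day 4, though not at day 0. That day 4 list was led by Clu (clusterin, a secreted chaperone that also marks regenerating epithelium) at 4.74%, 4.28% and 4.61% of counts, against 0.0858%, 0.0850% and 0.0744% at day 0. Reg3b, a secreted lectin of injured pancreas, was also in it at 1.09%, 1.20% and 1.41%, against 0.00361%, 0.00163% and 0.00160%. These are shares of counts and are not corrected for gene length.

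Cargo and membrane proteins of the zymogen granule fell, while some genes of docking and fusion rose. Of 23 granule and exocytosis genes, 5 were higher and 15 lower, 7 of them on both scales. Gp2, the main granule membrane glycoprotein, fell by 6.24 and syncollin (Sycn) by 6.50 on the log2 scale. Sytl2, a synaptotagmin-like effector of RAB27, had instead 11.8, 13.1 and 8.57 CPM at day 4, against 0.223, 0.209 and 0 CPM at day 0, and Stx3, the syntaxin of the apical membrane, 13.2, 14.1 and 13.1 CPM at day 4, against 6.25, 5.44 and 6.76 CPM at day 0. Among 20 secretagogue receptor and calcium signalling genes, 4 were higher and 13 lower, with 1 lower on both scales. Cckar, the cholecystokinin receptor, had 88.8, 96.7 and 127 CPM at day 4, against 721, 637 and 656 CPM at day 0, a log2 fold change of -2.69 ± 0.13 that became 0.28 with library totals. Atp2c2, a Golgi calcium pump of secretory cells, fell by 4.19 and lost share as well. Itpr3, the main apical calcium release channel, rose to 71.7, 65.4 and 66.7 CPM at day 4, against 25.9, 20.5 and 22.4 CPM at day 0.

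**Figure D3:**
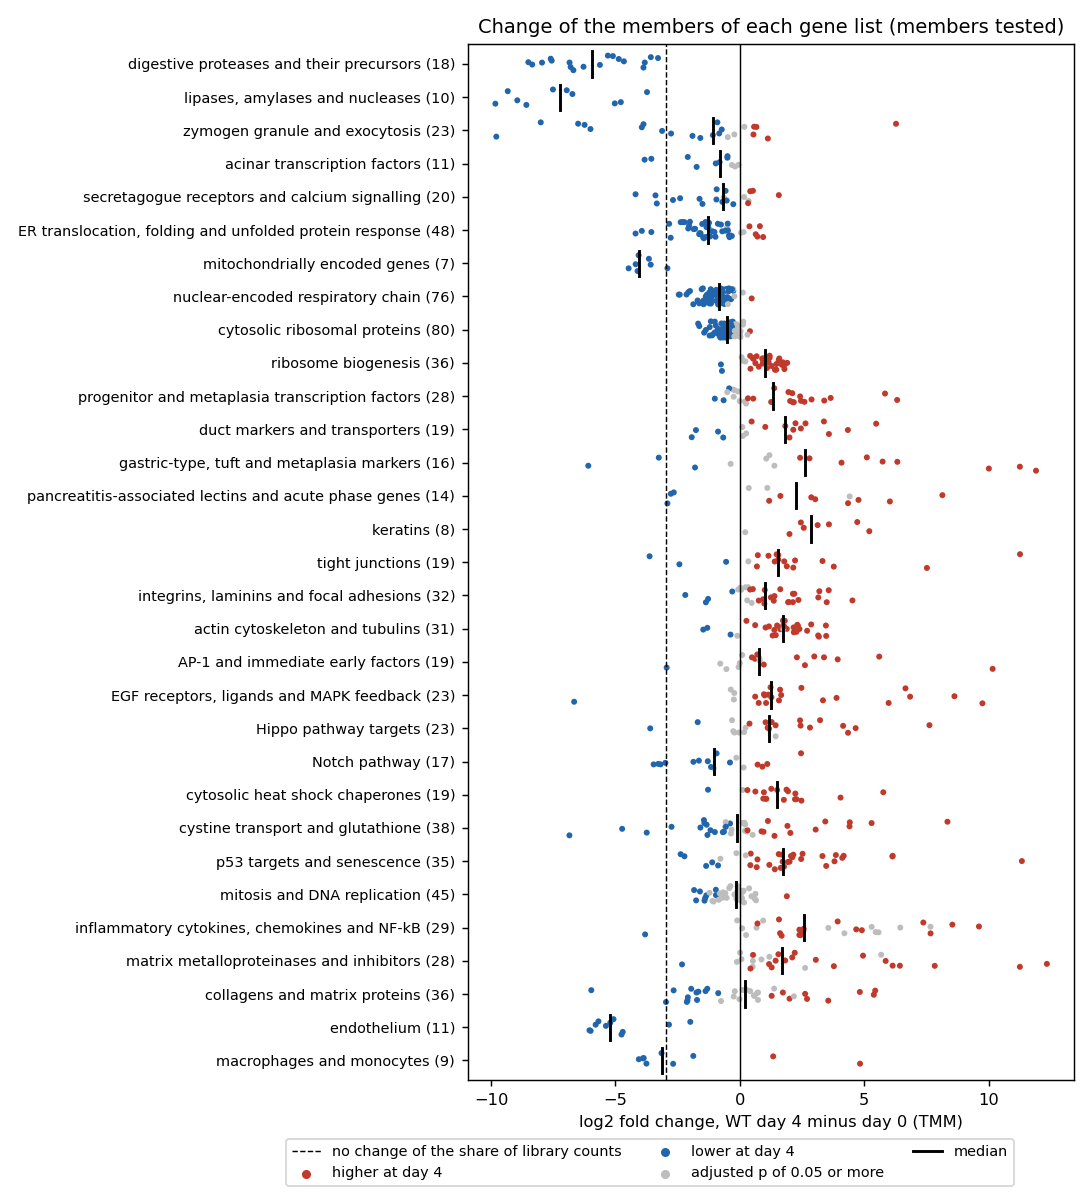
Points are the members of 31 gene lists that were tested, with the log2 fold change, WT day 4 minus day 0, on the x axis and the median as a bar. Enzyme lists lie to the left of the dashed line, that is below an unchanged share of library counts, most respiratory chain and ribosomal protein genes between it and 0, and keratin, junction, cytoskeleton and p53 lists mostly to the right of 0.

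Acinar transcription factors were split. Of 11 tested, 8 were lower and none was higher at day 4, and 2 of the 8, Rbpjl and Bhlha15, were lower also with library totals while 9 of the 11 took a larger share. Rbpjl, the acinar-specific subunit of the PTF1 complex, had 12.6, 11.7 and 16.4 CPM at day 4, against 154, 157 and 167 CPM at day 0, and Bhlha15, which organises the secretory apparatus, 15.6, 19.4 and 40.1 CPM at day 4, against 327, 323 and 416 CPM at day 0, log2 fold changes of -3.56 ± 0.14 and -3.83 ± 0.33. In both the groups did not overlap, and day 4 replicate 3 was the highest of its group. Ptf1a, another DNA-binding subunit of the PTF1 complex, had 59.5, 59.4 and 70.6 CPM at day 4, against 97.9, 64.7 and 54.3 CPM at day 0, overlapping groups with a log2 fold change of -0.19 ± 0.21 (adjusted p = 0.448, edgeR). Nr5a2, a nuclear receptor that co-activates enzyme genes, was lower at 28.8, 28.5 and 32.1 CPM at day 4, against 55.6, 50.7 and 68.2 CPM at day 0, and so were Creb3l1, Gata4 and Xbp1, the driver of secretory capacity, with log2 fold changes of -2.09, -0.49 and -0.50, though each of these 4 rose with library totals, by 1.99, 0.90, 2.47 and 2.48. Gata6 did not pass the test on the TMM scale (-0.05 ± 0.13, adjusted p = 0.76, edgeR).

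Transcription factors of progenitor, injured or metaplastic pancreas were more often higher, 17 of 28 against 33.5% of all genes, with 3 lower and a median log2 fold change of 1.32. Sox4, a factor of embryonic pancreas, had 123, 131 and 132 CPM at day 4, against 24.8, 19.5 and 19.7 CPM at day 0 (log2 fold change 2.60 ± 0.15). Etv4, an ETS factor downstream of MAPK and FGF signals, had 10.3, 8.34 and 5.98 CPM at day 4, against 0.223, 0 and 0.193 CPM at day 0, and Ets1 33.2, 27.2 and 26.5 CPM at day 4, against 7.36, 5.02 and 9.86 CPM at day 0. Hes1, the Notch effector, rose by 2.46, Klf4, a metaplasia factor, by 1.38 and Runx1 by 2.88. The forkhead factor Foxa1 and the mesenchymal homeobox gene Prrx2 were called at low levels, Foxa1 with a ratio of 13.4 (95% counting interval 2.37 to 532) and Prrx2 at least 1.88-fold higher. The call for Prrx2 was lost without day 0 replicate 2 or 3 (adjusted p = 0.052 and 0.0572, edgeR). Levels of Sox9, the duct and progenitor factor, were 20.2, 20.1 and 17.4 CPM at day 4, against 22.5, 24.1 and 20.3 CPM at day 0, not called on the TMM scale (adjusted p = 0.218, edgeR). Pdx1, a factor of the embryonic pancreas, was lower by this scale (-1.005) and higher with library totals (1.96). Mecom, a zinc finger factor tied to dedifferentiation, had 17.0, 19.2 and 22.2 CPM at day 4, against 14.3, 19.1 and 15.7 CPM at day 0, overlapping groups and a log2 fold change of 0.25 ± 0.17 (adjusted p = 0.202, edgeR) that was called with library totals (3.22) and when no filter on low counts was applied (adjusted p = 0.0219, edgeR).

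Duct markers rose in part. Of 19 tested, 12 were higher and 4 lower (33.5% and 26.9% of all genes were), none of the 4 on both scales, with a median of 1.83. Keratin 19 (Krt19) had 213, 198 and 168 CPM at day 4, against 31.9, 36.8 and 36.7 CPM at day 0, and Krt7 53.7, 56.2 and 59.8 CPM at day 4, against 4.69, 5.65 and 3.87 CPM at day 0, log2 fold changes of 2.45 ± 0.14 and 3.58 ± 0.23. Spp1, osteopontin, had 278, 298 and 190.3 CPM at day 4, against 69.6, 75.6 and 70.5 CPM at day 0. Slc4a4, the bicarbonate cotransporter of pancreatic ducts, had 28.4, 32.2 and 24.2 CPM at day 4, against 0.446, 2.72 and 0.966 CPM at day 0, and Cftr, its partner chloride channel, reached 4.94, 6.03 and 4.64 CPM at day 4, against 0.223, 1.47 and 0.773 CPM at day 0. Epcam, an epithelial adhesion molecule, rose by 2.24. Muc1, an apical mucin that acinar cells also make, was lower by 1.93 and higher by 1.05 with library totals, and Car2, the duct carbonic anhydrase, had 2.32, 2.67 and 1.28 CPM at day 4, against 0.892, 1.05 and 3.67 CPM at day 0, and was not called (adjusted p = 0.859, edgeR). The 4 lower ones were Muc1, Pkhd1, Ambp and Bicc1, and Aqp5, a water channel, was not called.

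Gastric-type and metaplasia markers included some of the steepest rises. Of 25 listed, 16 passed the filter, and 9 of these were higher and 3 lower. As 10 of the 25 had no counts at day 0, and could pass only through other groups, this count leans to higher genes too. Besides Anxa10, Cldn18 and Mmp7, the trefoil factor Tff1 had 5.53, 5.20 and 4.48 CPM at day 4, against no counts at day 0 (at least 24.4-fold higher), the gastric protease cathepsin E (Ctse) 64.0, 71.2 and 54.5 CPM at day 4, against 1.12, 1.05 and 1.35 CPM at day 0, and the gastric mucin Muc5ac 2.33, 3.69 and 1.64 CPM at day 4, against 0.223, 0 and 0 CPM at day 0. Cd44, a hyaluronan receptor of injured and metaplastic epithelium, rose to 72.3, 69.5 and 49.5 CPM at day 4, against 4.69, 3.56 and 3.09 CPM at day 0. Tff2 went the other way, with 51.8, 58.2 and 60.5 CPM at day 4, against 4718, 3749 and 3144 CPM at day 0, and a lower share too (-3.09 with library totals). Agr2, a disulfide isomerase of mucous cells, was lower on the TMM scale (-3.26) and not called with library totals (-0.32). Tff1 and Tff2 thus moved in opposite directions, and Tff3 was not called (adjusted p = 0.0756, edgeR).

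Secreted lectins of injured pancreas also moved in both directions. Of 14 lectin and acute phase genes tested, of 22 listed, 8 were higher and 3 lower. Reg3b had 3600, 3904 and 5108 CPM at day 4, against 114, 41.5 and 37.9 CPM at day 0 (log2 fold change 6.03 ± 1.36), Reg3g 329, 309.6 and 436 CPM at day 4, against 18.7, 10.5 and 10.4 CPM at day 0, and Reg3a 158, 189.6 and 244 CPM at day 4, against 39.5, 20.9 and 20.9 CPM at day 0. The call for Reg3a was lost without day 0 replicate 2 or 3 (adjusted p = 0.0646 and 0.0649, edgeR). Reg1, the stone protein of healthy acini, was lower by 2.65 and Reg3d by 2.77, and with library totals both were slightly positive (0.33 and 0.22, the second not called). REG genes are close paralogs, and their separation depends on the unstated handling of shared reads. F3, tissue factor, had 15.3, 14.2 and 8.87 CPM at day 4, against 0.669, 0.837 and 0.387 CPM at day 0, with a log2 fold change of 4.35 ± 0.51.

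Most genes listed for epithelial structure were higher. Of 16 keratins listed, 8 passed the filter, and 7 of these were higher and none lower. Krt8 and Krt18, the keratin pair of simple epithelia, were both high. Krt8 had 1228, 1044 and 1004 CPM at day 4, against 142, 115 and 118 CPM at day 0. Krt18 had 1298, 1057 and 1104 CPM at day 4, against 247, 176 and 160.2 CPM at day 0, and in both the groups did not overlap. Krt17 and Krt20, which are scarce in resting acini, had log2 fold changes of 4.72 ± 0.57 and 5.21 ± 0.80 from low levels. Of 19 tight junction genes, 15 were higher and 3 lower (33.5% and 26.9% of all genes were). Cldn18, without counts at day 0, could pass the filter only through other groups. Cldn10, a claudin of acinar cells, fell by 3.63 while Cldn4 rose. Of 17 gap and adherens junction genes, 14 were higher, E-cadherin (Cdh1) among them with 575, 559.7 and 558 CPM at day 4, against 152, 157 and 141 CPM at day 0, and 2 were lower, of which Gjb1, the main acinar connexin, had 6.43, 6.39 and 8.42 CPM at day 4, against 104, 86.5 and 81.4 CPM at day 0, and fell on both scales.

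Adhesion and actin genes were also mostly higher. Among 32 integrin, laminin and focal adhesion genes 21 were higher and 4 lower (median 0.99), and none of the 4 fell on both scales. Filamin A (Flna) rose to 464, 399 and 375 CPM at day 4, against 25.7, 44.8 and 39.04 CPM at day 0, alpha-actinin 1 (Actn1) to 597, 525 and 549 CPM at day 4, against 48.9, 57.2 and 75.8 CPM at day 0, and zyxin (Zyx) to 153, 144 and 147 CPM at day 4, against 15.2, 19.5 and 15.3 CPM at day 0. Itga1, a collagen receptor subunit also made by stromal cells, was lower by 2.19 and higher by 0.78 with library totals. Of 31 actin and tubulin genes 26 were higher (median 1.75), with gamma-actin (Actg1) at 362 ± 32.3 CPM at day 4 and 39.9 ± 5.05 CPM at day 0, and ezrin (Ezr) at 137 ± 14.7 CPM at day 4 and 26.0 ± 2.20 CPM at day 0 (SD, n = 3 each). Of 19 annexins and S100 genes 14 were higher, among them S100a11, which rose by 3.83, and Anxa3, with 101, 87.8 and 80.7 CPM at day 4, against 1.34, 1.26 and 3.29 CPM at day 0.

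AP-1 factors changed by member and not as a class. Of 19 tested, 11 were higher and 1 lower (33.5% and 26.9% of all genes were), with 7 not called. Fosl1 could pass the filter only through other groups, so this count leans to higher genes. Fosl1, the FOS-related factor of migrating and transformed epithelium, had 6.61, 5.58 and 4.72 CPM at day 4, against no counts at day 0 (at least 27.1-fold higher) and Fosl2 65.3, 65.7 and 64.3 CPM at day 4, against 3.79, 9.002 and 5.80 CPM at day 0. Junb rose by 2.29 and Atf3, a stress-induced member, by 2.99, whereas Jun had 56.6, 53.1 and 61.2 CPM at day 4, against 21.6, 56.3 and 80.6 CPM at day 0, and was not called (adjusted p = 0.818, edgeR). Fosb was lower by 2.94, with 0.880, 0.655 and 0.594 CPM at day 4, against 0.446, 4.19 and 11.4 CPM at day 0, and its call was lost with library totals. Day 0 replicates were far apart for Fosb and Jun, with replicate 1 the lowest in both.

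Growth factor signalling genes were mostly higher, 19 of 23 EGF receptor, ligand and MAPK feedback genes with 1 lower (median 1.27). Of the 26 listed, 5 had no counts at day 0, among them Areg, Ereg and Nrg1. These could pass only through other groups, so this count leans to higher genes. Ligands of EGFR moved in both directions. Areg and Ereg, the amphiregulin and epiregulin genes, had no counts at day 0, and were at least 9.35-fold and at least 20.4-fold higher, while Egf itself had 1.01, 1.55 and 1.89 CPM at day 4, against 159, 134 and 158 CPM at day 0, and lost share as well (-3.69 with library totals). Egfr, their receptor, rose to 59.9, 54.2 and 59.6 CPM at day 4, against 19.2, 16.7 and 18.9 CPM at day 0, and Dusp4, a phosphatase induced by ERK, to 28.2, 28.6 and 28.7 CPM at day 4, against 0, 0 and 0.773 CPM at day 0. Nrg1, a ligand of ERBB3, was called from few counts (at least 2.70-fold higher) and was not called on FPKM values.

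Hippo pathway targets were higher in 14 of 23 and lower in 2 (median 1.18). Ctgf, a direct YAP target, had 37.5, 39.1 and 34.6 CPM at day 4, against 2.68, 1.26 and 2.32 CPM at day 0, Ankrd1 8.26, 10.7 and 7.58 CPM at day 4, against 0.446, 0 and 0.580 CPM at day 0, and Wwtr1, which encodes the coactivator TAZ, 24.99, 25.4 and 24.3 CPM at day 4, against 4.69, 4.19 and 4.83 CPM at day 0. Notch pathway genes went mostly the other way, with 4 higher and 10 lower of 17 (median -1.05), of which 1, Lfng, was lower with library totals too. Notch1 had 7.22, 9.04 and 9.21 CPM at day 4, against 27.4, 30.1 and 34.98 CPM at day 0, a log2 fold change of -1.86 ± 0.15 against 1.09 with library totals. Lfng, which tunes ligand choice, fell by 3.46, and Jag1, a ligand, rose by 0.72. Hes1 rose by 2.46, whereas Heyl and Nrarp were lower, with log2 fold changes of -1.29 and -1.16 (adjusted p = 8.9e-08 and 0.0288, edgeR) against 1.68 and 1.78 with library totals. A link between these genes was not tested. Of 26 Wnt pathway genes 9 were higher and 8 lower, near the shares of all genes (33.5% and 26.9%), around a median of -0.06, and none was lower with library totals.

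Chaperones of the cytosol and of the endoplasmic reticulum (ER) took opposite directions on the TMM scale. Of 19 heat shock chaperones listed as cytosolic 17 were higher and 1 lower (median 1.502), though Hspd1 and Hspe1, both among the higher, are mitochondrial. Hspa8 had 1096, 930.4 and 1010 CPM at day 4, against 225, 170.0 and 151 CPM at day 0, and Hsp90ab1 1536, 1364 and 1402 CPM at day 4, against 315, 296 and 304 CPM at day 0. Of 48 ER translocation, folding and unfolded protein response genes 5 were higher and 39 lower (median -1.27), but with library totals 43 were higher and 3 lower. P4hb, the abundant disulfide isomerase, had 365, 366 and 506 CPM at day 4, against 3184, 2813 and 2484 CPM at day 0, and its log2 fold change of -2.78 ± 0.13 became 0.20 with library totals, not called (adjusted p = 0.0557, edgeR). Ssr4, a translocon subunit, fell by 3.56 and lost share, while Pdia3 rose by 0.81. ER genes thus lagged behind the median gene although the share of the library held by most of them grew.

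Of 35 targets of ATF4, the factor of the amino acid response, 8 were higher and 22 lower (33.5% and 26.9% of all genes were). Of the 22, 1 was lower on both scales. Pycr1, a proline synthesis enzyme, was the member lower on both scales, by 4.85 with TMM, and Asns, asparagine synthetase, was lower by 1.85 but higher by 1.13 with library totals. Members that rose included the stress cytokine Gdf15 with 27.8, 26.6 and 19.6 CPM at day 4, against 0.446, 0.209 and 0.387 CPM at day 0, and sestrin 2 (Sesn2) with 36.9, 37.4 and 38.9 CPM at day 4, against 13.4, 12.8 and 12.2 CPM at day 0. Of 20 aminoacyl-tRNA synthetases 5 were higher and 7 lower (33.5% and 26.9% of all genes were), none past 2-fold and none lower with library totals.

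Cystine import and glutathione genes went in both directions, with 13 higher and 15 lower of 38 (33.5% and 26.9% of all genes were) and a median of -0.11, 3 of the 15 being lower on both scales. Slc7a11, the xCT subunit deleted in the KO mice, had 39.3, 39.4 and 36.7 CPM at day 4, against 11.2, 10.05 and 9.47 CPM at day 0, a log2 fold change of 1.92 ± 0.14 (adjusted p = 3.7e-13, edgeR), and 70.2, 63.9 and 77.1 CPM at day 1, so that on the TMM scale its level at day 4 stood between those of day 0 and day 1. As a share of library counts Slc7a11 was instead highest at day 4, as TMM factors were 2.76 to 3.09 at WT day 4 and 0.739 to 0.762 at WT day 1. Its heavy chain partner Slc3a2 had 148, 127 and 144 CPM at day 4, against 462, 333 and 341 CPM at day 0, and was lower by 1.442, a direction that turned with library totals (1.55). Gclc, the catalytic subunit of the rate-limiting enzyme of glutathione synthesis, rose to 101, 105 and 81.9 CPM at day 4, against 11.2, 7.12 and 8.50 CPM at day 0, and Gss, which completes the synthesis, to 27.4, 23.9 and 25.3 CPM at day 4, against 6.25, 8.16 and 4.44 CPM at day 0. The modifier subunit Gclm had 30.7, 30.9 and 25.5 CPM at day 4, against 24.5, 26.2 and 24.7 CPM at day 0, and was not called (adjusted p = 0.164, edgeR), but was called higher when no filter on low counts was applied (adjusted p = 0.0154, edgeR). Gpx4, which reduces lipid peroxides and guards against ferroptosis, had 55.0, 57.4 and 58.9 CPM at day 4, against 59.1, 42.1 and 40.003 CPM at day 0, also not called (adjusted p = 0.0571, edgeR), and was called higher without day 0 replicate 1 (adjusted p = 0.00161, edgeR). Ggt1, which breaks down extracellular glutathione, had 16.1, 15.2 and 20.8 CPM at day 4, against 558, 446 and 376 CPM at day 0, and fell on both scales, whereas Gpx2, the epithelial peroxidase, rose by 5.30. Gclc and Gss were thus higher and Ggt1 lower.

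NRF2 targets, thioredoxin and peroxiredoxin genes were higher in 21 of 36 and lower in 3, or 7 without day 0 replicate 3. Nfe2l2, which encodes NRF2, rose to 139, 140.0 and 111 CPM at day 4, against 11.2, 16.5 and 14.3 CPM at day 0, and its target Me1, malic enzyme, to 30.98, 32.9 and 29.7 CPM at day 4, against 2.45, 1.05 and 1.55 CPM at day 0. Prdx4, the peroxiredoxin of the ER, fell by 4.64 on the TMM scale and by 1.65 with library totals. Of 37 ferroptosis genes 15 were higher and 15 lower (33.5% and 26.9% of all genes were), with a median of -0.06 and none of them lower with library totals. Acsl4, a lipid-activating enzyme that favours ferroptosis, had 23.6, 28.0 and 24.6 CPM at day 4, against 5.35, 4.61 and 6.38 CPM at day 0, and rose by 2.21, and Tfrc, the transferrin receptor, had 12.3, 14.5 and 8.999 CPM at day 4, against 5.58, 3.56 and 10.6 CPM at day 0, and was not called (adjusted p = 0.0505, edgeR), though without day 0 replicate 3 it was called at a log2 fold change of 1.40 (adjusted p = 0.00649, edgeR). Of 32 sterol and fatty acid synthesis genes 8 were higher and 10 lower, and of 22 metallothionein and zinc transporter genes 6 were higher and 10 lower, with 1 of all these lower genes lower on both scales. Over all genes tested, 33.5% were higher and 26.9% lower.

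Mitochondrial genes fell most where the organelle itself encodes them. All 7 mitochondrially encoded genes tested were lower (median -4.07), 6 of them with library totals too. mt-Cytb, a subunit of complex III, had 470.1, 512 and 604 CPM at day 4, against 11552, 12886 and 10660 CPM at day 0, and mt-Nd4, of complex I, 165, 170.1 and 201 CPM at day 4, against 3233, 3547 and 2976 CPM at day 0. The mitochondrial genes mt-Co2 and mt-Atp6 had no counts in any library and could not be examined. Of 76 nuclear-encoded respiratory chain genes 1 was higher and 70 lower, over a narrow range (median -0.84), and all 76 were higher with library totals. Ndufa1, for example, was lower by 2.45 and higher by 0.53 with library totals. Cytosolic ribosomal protein genes were alike, with 1 higher and 62 lower of 80 (median -0.52) and all 80 higher with library totals. Rplp1 was lower by 1.67 and higher by 1.32 with library totals. The direction of both lists thus depends on the scale. Of 36 ribosome biogenesis genes 31 were higher and 2 lower (median 1.03), among them nucleophosmin (Npm1) at 336, 341 and 335 CPM at day 4, against 106, 92.3 and 94.1 CPM at day 0. Of 31 glycolysis and hypoxia genes 20 were higher and 4 lower, or 2 lower without day 0 replicate 3 (median 0.83).

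Most cell cycle genes were not called. Of 45 mitosis and DNA replication genes 1 was higher and 8 lower (33.5% and 26.9% of all genes were), with 36 not called. Mki67 had 5.64, 5.13 and 5.11 CPM at day 4, against 16.1, 21.6 and 16.04 CPM at day 0, a log2 fold change of -1.76 ± 0.64 (adjusted p = 0.0305, edgeR) whose call was lost when any 1 of the 6 libraries was left out (adjusted p up to 0.0991, edgeR). Top2a had 3.75, 3.55 and 3.46 CPM at day 4, against 9.15, 11.1 and 7.15 CPM at day 0, and with library totals both were positive (1.21, not called, and 1.63). The 1 higher member was Kif23, a cytokinesis kinesin at 1.30 ± 0.0817 CPM at day 4 and 0.348 ± 0.243 CPM at day 0, and its call was lost without day 0 replicate 1 or 3.

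Targets of p53 and senescence genes were higher in 27 of 35 and lower in 5 (33.5% and 26.9% of all genes were), with a median of 1.72. Pmaip1, without counts at day 0, could pass the filter only through other groups. Cdkn1a, the cyclin-dependent kinase inhibitor p21, had 308, 294 and 279.8 CPM at day 4, against 19.2, 25.1 and 43.3 CPM at day 0 (log2 fold change 3.32 ± 0.18), Phlda3, an inhibitor of AKT, 42.6, 37.7 and 34.4 CPM at day 4, against 1.34, 2.09 and 4.25 CPM at day 0, and Trp53 itself 37.8, 36.5 and 34.4 CPM at day 4, against 6.69, 3.77 and 8.31 CPM at day 0. Bax, a pore former of apoptosis, had 47.3, 43.5 and 41.3 CPM at day 4, against 6.47, 11.1 and 6.38 CPM at day 0. Cdkn2a did not pass the filter. Of 31 caspase and BCL2 family genes 20 were higher and 5 lower, and Casp9, the initiator caspase of the mitochondrial pathway, had 11.5, 12.1 and 13.3 CPM at day 4, against 318, 229 and 222 CPM at day 0, and fell on both scales. Strand use in the counting is not stated, and whether reads of a neighbouring gene were counted for Casp9 was not tested. Of 40 autophagy and lysosome genes 21 were higher and 13 lower (33.5% and 26.9% of all genes were), with a median of 0.28 and none lower with library totals.

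Several inflammatory genes with few or no counts at day 0 were higher. Of 35 cytokine, chemokine and NF-kB genes listed, 29 passed the filter, and 16 of these were higher, 1 lower and 12 not called. Of the 35, 12 had no counts at day 0, and could pass only through other groups, so that this count leans to higher genes. Ccl2, the monocyte chemoattractant, had 3.73, 4.63 and 3.17 CPM at day 4, against no counts at day 0 (at least 18.6-fold higher), Tnf 1.09, 1.26 and 0.630 CPM at day 4, against no counts at day 0, and Lif, a cytokine of the interleukin 6 family, 13.3, 13.3 and 10.3 CPM at day 4, against 0, 0.209 and 0 CPM at day 0. Of 35 interferon response genes 10 were higher and 4 lower, no larger a share than that of all genes (33.5% and 26.9%). Matrix metalloproteinases and their inhibitors were higher in 18 of 28 and lower in 1 (median 1.69), including Mmp10 (at least 5.40-fold higher) and Plaur, the urokinase receptor, with a ratio of 88.5 (95% counting interval 30.2 to 429). Of the 29 listed, 4 (Mmp7, Mmp10, Mmp12 and Timp1) had no counts at day 0. They could pass only through other groups, so this count leans to higher genes too. Of 30 TGF-beta and migration genes 22 were higher and 3 lower.

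Collagens and matrix proteins went in both directions, with 9 higher and 13 lower of 36 (33.5% and 26.9% of all genes were), and 1 of the 13 lower on both scales. Thrombospondin 1 (Thbs1) had 387, 386 and 299 CPM at day 4, against 6.02, 7.33 and 11.98 CPM at day 0. Col1a1, the fibrillar collagen that marks fibroblasts, had 159.9, 178 and 133 CPM at day 4, against 15.6, 43.8 and 57.2 CPM at day 0 (log2 fold change 1.999 ± 0.50), and Col12a1 rose by 4.82. Elastin (Eln), by contrast, had 0.162, 0.293 and 0.180 CPM at day 4, against 10.3, 16.7 and 13.7 CPM at day 0, and was the 1 that fell on both, and Col6a1 was lower by 1.74 and higher by 1.20 with library totals. Day 0 replicate 1 was the lowest of its group for Col1a1 and Col6a1. Of 11 fibroblast and stellate cell markers tested 1 was higher and 5 lower, and their summed level was 278 to 358 CPM at day 4 and 177 to 345 CPM at day 0, ranges that overlap. This list itself holds Col1a1, Col1a2 and Col3a1, so its sum is not independent of the collagen changes. The part of stromal cells in the collagen changes was not tested.

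Markers of other pancreatic cells were mostly lower on the TMM scale, and most were weak. All 11 endothelial markers tested were lower, 9 on both scales, with a summed level of 2.32 to 6.44 CPM at day 4 and 125 to 157 CPM at day 0. Plvap, an endothelial diaphragm protein, had 0.646, 1.22 and 0.756 CPM at day 4, against 43.5, 52.5 and 40.003 CPM at day 0, and VE-cadherin (Cdh5) 0.341, 0.706 and 0.0540 CPM at day 4, against 10.7, 15.3 and 15.5 CPM at day 0. Smooth muscle markers were lower in 7 of 8 (with library totals 5 were higher and 1 lower), and their sum was 16.4 to 19.1 CPM at day 4 and 43.3 to 80.0 CPM at day 0. Ptprc, the pan-leukocyte marker CD45, had 0.0359, 0.172 and 0.180 CPM at day 4, against 2.23, 1.88 and 6.96 CPM at day 0, and Csf1r, the macrophage receptor, 0.790, 0.947 and 0.648 CPM at day 4, against 6.69, 9.63 and 15.8 CPM at day 0 (lower on the TMM scale, not called with library totals). Cd14, a lipopolysaccharide receptor listed with the macrophage markers, nevertheless rose to 44.5, 42.5 and 31.8 CPM at day 4, against 1.34, 1.05 and 1.74 CPM at day 0. Of the 9 macrophage and monocyte markers tested, 2 were higher and 7 lower, and with library totals 2 were higher and 0 lower. Their summed level was 44.4 to 58.7 CPM at day 4 and 31.7 to 68.8 CPM at day 0, ranges that overlap. Cd14 made up most of the day 4 sum, and the median log2 fold change of the 9 was -3.15. The sum thus does not speak for the other members. All 3 plasma and B cell markers that passed the filter were lower on both scales, Ms4a1, Mzb1 and Cr2 had no counts at day 4, no neutrophil marker passed it, and Ly6g and Cxcr2 had no counts in either group. Islet markers were higher in 1, lower in 4 and not called in 8 of 13 (with library totals 10 were higher and 0 lower), and Ins2 varied widely, with 34.8, 84.95 and 149 CPM at day 4, against 319, 1044 and 504 CPM at day 0. Acinar markers themselves took 8.07% ± 1.23 of counts at day 4 and 45.1% ± 0.851 at day 0 (SD, n = 3 each), so the labelled cell type was present at both days.

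WT day 1 libraries place the net change in time. Among the genes called between day 4 and day 0, 1071 had all 3 day 1 libraries above both days on the TMM scale and 649 had them below both, so that the net change of these genes does not describe their course. Day 1 levels were not tested with library totals, and the order of the days can depend on the scale. The 6 genes with the widest gap upward were Defb1, Cyp2b10, Usp18, Atf3, Pirt and Hspa1a. Atf3 had 0.892, 1.05 and 1.93 CPM at day 0, 162, 129 and 129 CPM at day 1 and 9.87, 9.99 and 11.7 CPM at day 4. Hspa1a, the inducible HSP70, had 0.669, 0.837 and 0 CPM at day 0, 96.5, 85.01 and 90.6 CPM at day 1 and 10.2, 7.73 and 6.35 CPM at day 4. Both were thus still above day 0 at day 4 after a far higher level at day 1. Usp18, a brake on interferon signalling, had 0.892, 0.419 and 1.16 CPM at day 0, 38.4, 36.1 and 38.2 CPM at day 1 and 2.53, 1.91 and 2.09 CPM at day 4. Defb1, a defensin, and Cyp2b10, a cytochrome P450, were weak at day 0 and day 4, and the call for Defb1 was lost without day 0 replicate 3 (adjusted p = 0.0503, edgeR).

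The 6 genes with the widest gap downward were Acta2, Cygb, Igfbp4, Tet1, Serpinf1 and Adamts9. Acta2, smooth muscle actin and a marker of activated stellate cells, had 9.59, 15.7 and 14.1 CPM at day 0, 0, 0.103 and 0 CPM at day 1 and 6.07, 6.27 and 5.003 CPM at day 4. Cygb, a globin of stellate cells, had 5.13, 7.96 and 6.38 CPM at day 0, 0, 0 and 0 CPM at day 1 and 2.14, 2.41 and 1.93 CPM at day 4, and Igfbp4, a secreted binding protein of insulin-like growth factors, 10.3, 26.0 and 21.1 CPM at day 0, 0.371, 1.03 and 0.929 CPM at day 1 and 9.01, 8.99 and 8.73 CPM at day 4. All 3 were near 0 at day 1, and Col1a1 was also lowest there (2.60, 2.59 and 1.58 CPM at day 1). With library totals the day 4 level of Acta2, Cygb, Igfbp4 and Tet1 was higher than that of day 0 (1.77, 1.37, 1.83 and 1.10). The call for Igfbp4 was lost without day 0 replicate 2 (adjusted p = 0.0742, edgeR). Among acinar genes, Cckar was lowest at day 1 (55.2, 49.6 and 43.6 CPM at day 1), and so were Ptf1a (30.2, 17.4 and 27.9 CPM at day 1), Nr5a2 (18.1, 15.1 and 15.9 CPM at day 1) and Mecom (5.47, 3.52 and 2.97 CPM at day 1), whereas Pnlip and Zg16 had day 1 levels between those of day 0 and day 4.

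**Figure D4:**
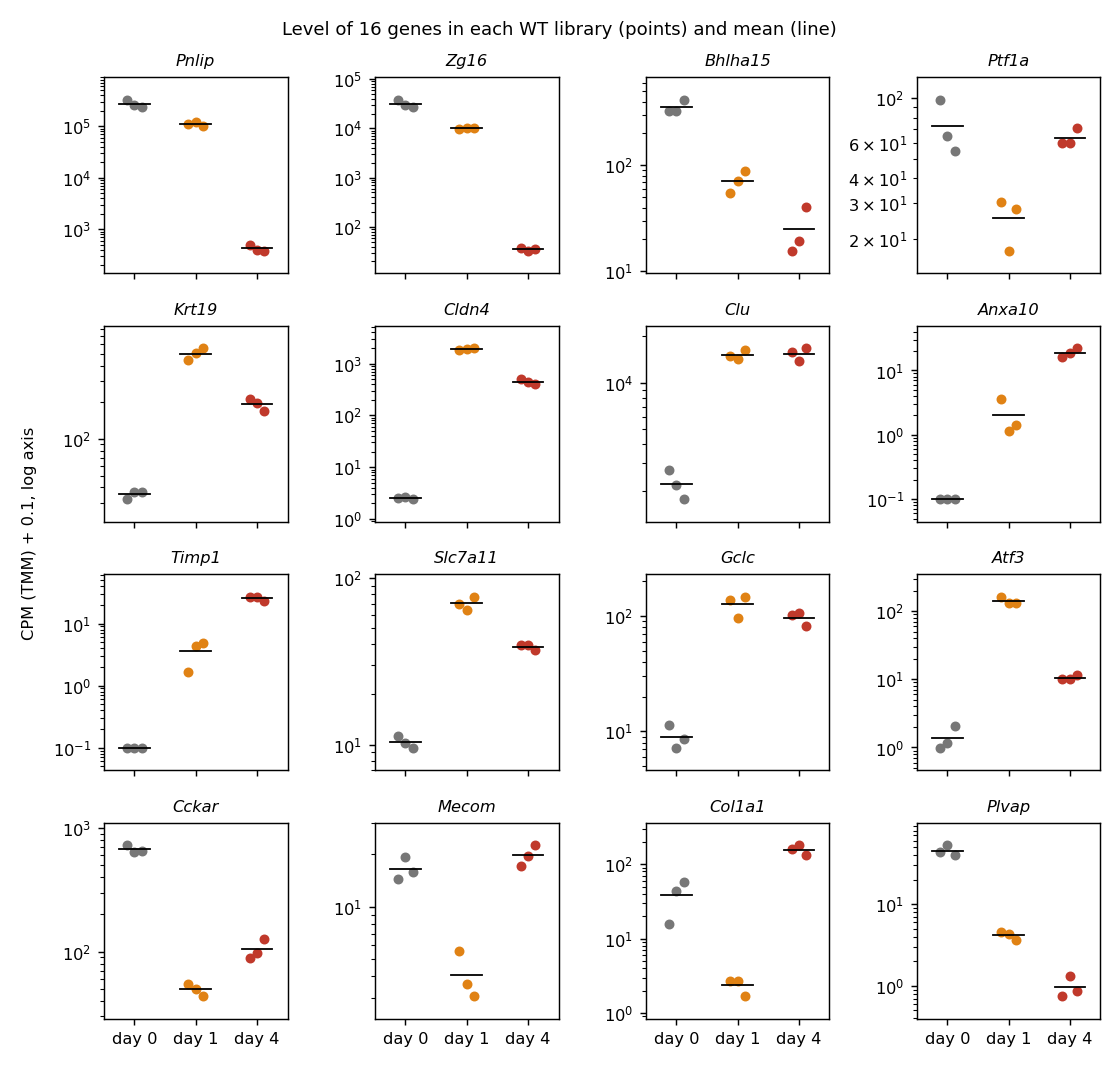
Each panel gives the level of 1 gene in the WT libraries of day 0, day 1 and day 4 (CPM plus 0.1, log axis), with points for libraries and a line for the mean. On the TMM scale Pnlip and Zg16 stepped down at each day, Anxa10 and Timp1 stepped up, Cldn4, Slc7a11 and Atf3 were highest at day 1, and Cckar, Ptf1a, Mecom and Col1a1 were lowest at day 1.

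The xCT KO libraries, made in the same manner and sharing none of the 6 WT libraries, had a similar net change. Slc7a11 itself, the deleted gene, had 0.373, 0.556 and 0.475 CPM at day 4, against 0.519, 1.25 and 0.199 CPM at day 0 in KO. In KO cells 4661 genes (35.3%) were higher and 3823 (29.0%) lower at day 4. Of the 2777 genes past 2-fold in WT, 2750 (99%) had the same sign in KO and 2644 (95.2%) were called in the same direction. The difference between the KO and the WT change, tested as an interaction in edgeR, was called for 222 genes (1.68%), of which 52 were higher and 170 lower in KO, and 88 of the 222 were among the 2777. Leaving out 1 WT library at a time moved these counts to between 22 and 93 higher and between 86 and 261 lower, the largest without day 0 replicate 1 and the smallest without day 0 replicate 2 (22 and 86) or, for the higher ones, day 4 replicate 3 (22). Of the 36 collagen and matrix genes, 15 were called for the difference. Col1a1 changed by -1.26 in KO and by 1.999 in WT (difference -3.26 ± 0.72 SE, adjusted p = 0.0448, edgeR), a call that was lost when any 1 of the 6 WT libraries was left out (adjusted p = 0.0502 to 0.0929, edgeR) and with library totals. All 11 fibroblast markers, a list that includes Col1a1, were lower in KO at day 4, against 1 higher and 5 lower in WT. The part of fibroblasts in the collagen difference was not tested. Of the 35 ATF4 targets 13 were called for the difference. Asns, for example, changed by -2.40 in KO and by -1.85 in WT (difference -0.54 ± 0.14 SE, adjusted p = 0.0467, edgeR), a call lost without any 1 WT library other than day 0 replicate 1 (adjusted p = 0.0539 to 0.123, edgeR) and with library totals. Of the enzyme genes, 1 of 18 proteases and 0 of 10 lipases, amylases and nucleases were called for the difference (1.68% of all genes were). The protease median was -6.62 in KO and -5.95 in WT, and that of the other enzymes -7.59 in KO and -7.23 in WT. Pnlip changed by -9.47 in KO and by -9.33 in WT. Ddx3y, a Y-linked gene, was counted in WT replicate 1 of each day and in no KO library, so that genotype and sex are in part confounded, while day 4 and day 0 in WT are balanced in this respect.

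**Figure D5:**
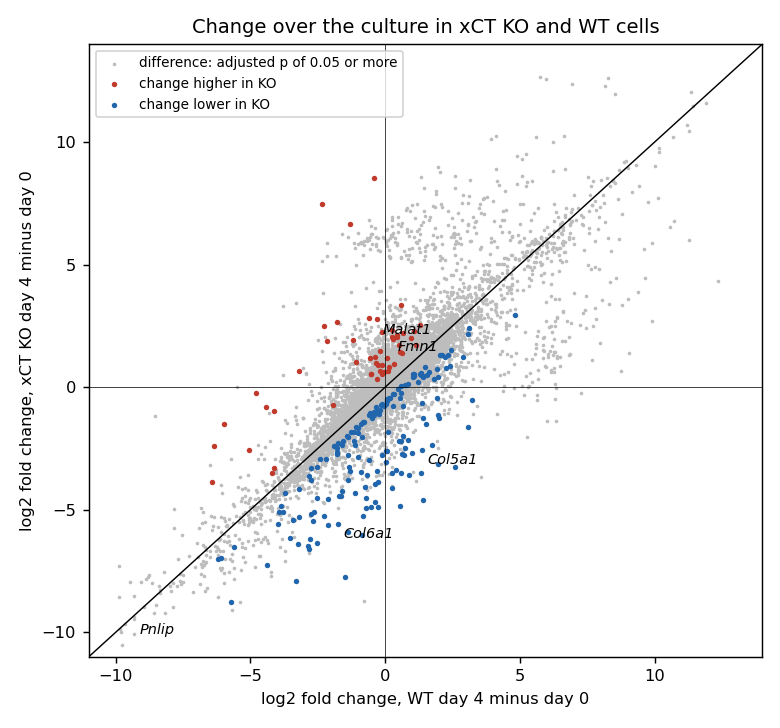
Each point is 1 of the genes tested, with the log2 fold change, day 4 minus day 0, of WT on the x axis and of xCT KO on the y axis, and a line where both are equal. Genes lie along the line, and the coloured points are the 222 called for the difference, among them Col5a1 and Col6a1 below it and Malat1 and Fmn1 above it.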

How the data were processed

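RNA of WT and xCT KO acinar cells was sequenced at day 0, day 1 and day 4 with 3 libraries per group, as single-end reads of total RNA libraries. Raw counts per gene were deposited by the authors. Reads had been cut at base quality 20 and dropped under 35 bp (FastX 0.0.14), cleaned further with ShortRead 1.44.3, mapped to GRCm38 (Ensembl release 82) and assigned to genes by featureCounts 1.5.3. The aligner and strand setting are not given in the sources used here. FPKM were also deposited by the authors, quantile normalised in full with EDASeq, and served only as an alternative. Columns were assigned by their labels, and 0 columns belonged to other samples. Chromosomes came from the reference annotation (98.9% of identifiers matched, 84.5% with the same start and end). Replicates differed by more than sampling noise (chi-square per degree of freedom 5.84 to 31.6), and each was kept as 1 library.

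The tests used edgeR 4.0.16 under R 4.3.3. Its default filter on low counts was applied, and libraries were scaled by TMM (factors 2.76 to 3.09 at WT day 4 and 0.316 to 0.423 at WT day 0). Genes were tested with the quasi-likelihood test in 1 model of the 6 groups, with Benjamini-Hochberg adjustment over all genes and a threshold of 0.05. A test against a 2-fold change and the interaction of genotype and day used the same fit. Scripts were tested on simulated data. Where a group had no counts, 3 counts over its libraries served as the floor of the fold, and for 1 to 3 counts an exact 95% interval was computed. Shares were compared with an exact permutation test. Alternatives were RLE or library totals scaling, other filters, TMM without enzyme genes, WT libraries only, a replicate block, each WT library left out, DESeq2 1.42.0, and limma 3.58.1 on log2(FPKM + 1) or log2(FPKM + 0.1).

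The comparison and gene lists were chosen with earlier results of these data known. Named genes are the 12 highest and 12 lowest among genes past 2-fold with at least 5 CPM and no overlap, up to 4 list members per direction with the smallest adjusted p, a fixed list of acinar, duct and glutathione genes, the 5 highest and 5 lowest KO and WT differences, and the 6 genes in each direction whose day 1 levels lay furthest outside both other days. Chosen after their values were seen were Pnliprp1, Gata6, Klf4, Foxa1, Prrx2, Runx1, Car2, Tff1, Muc5ac, Reg3b, Reg3g, Krt17, Krt20, Fosl1, Jun, Junb, Areg, Ereg, Nrg1, Ctgf, Ankrd1, Top2a, Ccl2, Tnf and Mmp10. Results for 2 further genes are not reported here.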

Additional observations from a re-analysis of the deposited data

Results flagged for a closer look

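The change over the culture differed between xCT KO and WT cells, by the interaction test in edgeR, for 222 of the 13203 genes tested (1.68%), and 1921 (14.5%) had an unadjusted p under 0.05. The 5 genes with the largest positive and the 5 with the largest negative differences among those with a mean of at least 5 CPM are given with their levels.

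The 5 genes that were higher in the KO change were not all known from one process. Malat1, a nuclear long noncoding RNA, had 45.8, 49.0 and 46.3 CPM at day 4, against 6.74, 7.32 and 6.58 CPM at day 0 in KO and 6.01, 7.41 and 6.93 CPM at day 4, against 5.13, 7.54 and 12.2 CPM at day 0 in WT, a difference of 3.08 ± 0.61 (SE, adjusted p = 0.0274), whose call was lost without day 0 replicate 2 or 3 or day 4 replicate 1 or 3 (adjusted p = 0.0525 to 0.101). Fmn1, a formin that nucleates actin, changed by 2.05 in KO and by 0.26 in WT, a difference of 1.79 ± 0.42 (adjusted p = 0.026). Without day 0 replicate 2 the Fmn1 difference was 1.12 (adjusted p = 0.179) and the WT change 0.93 (adjusted p = 0.00307). Ccnl2, a cyclin linked to splicing, differed by 1.66 ± 0.26, Rev1, a translesion polymerase, by 1.61 ± 0.40 and the locus 2410002F23Rik by 1.26 ± 0.33. The call for Rev1 was lost without day 0 replicate 2 or 3 or day 4 replicate 2 or 3 (adjusted p = 0.0673 to 0.204), that for 2410002F23Rik without any 1 WT library other than day 0 replicate 2 (adjusted p = 0.0598 to 0.186), and that for Ccnl2 in none of these fits. With library totals the calls for Malat1, Rev1 and 2410002F23Rik were lost, and with a replicate block those for Rev1 and 2410002F23Rik. In Malat1 the WT change itself was -0.31 with TMM and 2.65 with library totals.

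The 5 genes that were lower in the KO change are collagens of types V and VI, which fibroblasts make. Col6a1 had 1.01, 0.455 and 0.728 CPM at day 4, against 37.7, 42.02 and 26.1 CPM at day 0 in KO and 7.92, 9.25 and 7.34 CPM at day 4, against 17.6, 28.9 and 34.98 CPM at day 0 in WT, a difference of -3.84 ± 0.47 (adjusted p = 9.2e-04). Col5a1 had 4.12, 1.43 and 3.05 CPM at day 4, against 18.9, 22.6 and 8.97 CPM at day 0 in KO and 30.6, 36.2 and 26.3 CPM at day 4, against 4.69, 17.2 and 13.5 CPM at day 0 in WT, a difference of -3.93 ± 0.82 (adjusted p = 0.0369), whose call was lost with library totals and without any 1 WT library other than day 0 replicate 1 (adjusted p = 0.0612 to 0.0813). Col6a3 differed by -3.80 ± 0.63, Col5a3 by -3.78 ± 0.50 and Col6a2 by -3.51 ± 0.46. Fibroblast markers, a list with collagens of types I and III but not V or VI, were lower in 11 of 11 in KO. In WT 1 of the 11 was higher and 5 lower. The part of fibroblasts in the difference was not tested. Col1a1, described above, differed by -3.26 ± 0.72 and Asns by -0.54 ± 0.14.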

How the results depend on the processing

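Scaling was the choice with the largest effect. With library totals only, 12345 genes were higher and 305 lower (97.6% of calls higher, against 55.5% with TMM), 11815 and 205 past 2-fold, and for the KO and WT difference 18 higher and 42 lower. Under that scale the following changed direction (log2): Cckar 0.28, Ptf1a 2.81, Nr5a2 1.99, Gata4 2.47, Gata6 2.91, Xbp1 2.48, Creb3l1 0.90, Sox9 2.77, Pdx1 1.96, Muc1 1.05, Reg1 0.33, Reg3d 0.22, Itga1 0.78, Notch1 1.09, P4hb 0.20, Asns 1.13, Slc3a2 1.55, Ndufa1 0.53, Rplp1 1.32, Mki67 1.21, Top2a 1.63, Col6a1 1.20, Ins2 0.11, Vim 2.87, Malat1 2.65, Ccnl2 2.79, Col6a2 0.83, Acta2 1.77, Cygb 1.37, Igfbp4 1.83, Tet1 1.10. On FPKM values P4hb (0.28) and Pnliprp1 (0.66) were positive with either pseudocount, and limma on log2(FPKM + 1) gave 471 genes higher and 595 lower past 2-fold. DESeq2 gave 820 higher past 2-fold. These FPKM were quantile normalised, so the highest genes take the same values in each library. The other settings for the WT comparison kept each count within 1.5 times, with 3960 to 4972 genes higher and 3432 to 4143 lower.

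Leaving out 1 WT library at a time gave 4086 to 4325 genes higher, 3338 to 3494 lower, 1141 to 1326 and 1369 to 1476 past 2-fold, and 22 to 93 higher and 86 to 261 lower for the KO and WT difference. The call for Mki67 was lost in every such fit and without a filter (-1.62). Replicate numbers were not taken as pairs in the main fit. Same-numbered libraries of day 4 and day 0 had correlations of 0.103, 0.0765 and -0.0309, and not every library correlated best with its own number. With 3 libraries per group these correlations cannot decide whether the numbers are pairs. The labels carry the same numbers at each day, and replicate 1 was the WT library with counts of the Y-linked Ddx3y at each day. With a replicate block 4335 genes were higher and 3472 lower, of which 4299 and 3455 were shared with the fit without it. Among short list counts, leaving out day 0 replicate 1 gave 2 lower AP-1 and 2 lower EGF receptor genes in place of 1 each and 3 higher ribosomal protein genes in place of 1, and with no filter 8 synthetase genes were higher in place of 5. The causes of these changes were not tested. Weak genes at day 0 are limited by depth, and 288 genes tested had no counts there. Such genes could pass the filter only through other groups, so list counts that hold them lean to higher genes.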
